A study of Mus musculus with 18 samples.

Results

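Depletion of WDR82 was set directly against depletion of ZC3H4 in mouse embryonic stem cells that carried a library of short DNA inserts at one genomic locus. The comparison used 12 of the series' 18 libraries, which came from 6 of its 9 cultures: 3 cultures transfected with siRNA to WDR82 (siWDR82) and 3 with siRNA to ZC3H4 (siZC3H4), each with an RNA library and a genomic DNA (gDNA) library. The RNA and gDNA of a culture were paired by its number, and the 3 cultures with non-targeting siRNA (siNT) took no part in the contrast. An insert was kept where its gDNA reads averaged at least 20 over the 6 cultures, which held for 15407 of the 16461 inserts. The level of an insert was log2 of its RNA CPM (reads scaled to the library's total) plus 0.5 minus log2 of its gDNA CPM plus 0.5, with unspliced and spliced RNA reads added together.

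The series applied INSERT-seq, an assay that reads the steady-state RNA of many inserted sequences in parallel and divides it by the abundance of each insert in the cells' DNA. All cultures were female CAST/129 hybrid stem cells of a single genotype, in which the 129 allele of Oct4 carries TagBFP2 at Oct4C, the INSERT-seqlibrary at Oct4ua157 and the fluorescent reporter mKate2 at Oct4ua172. The inserts thus lay in the upstream antisense RNA (uaRNA) of Oct4. Cells were kept with LIF and inhibitors of MEK and GSK3, which the siNT cultures had too. The treatment protocol gives 30 nM siRNA for all cultures, as do the labels of the siZC3H4 and siNT cultures, while the labels of the siWDR82 cultures read 30, 31 and 32 nM. Each culture was a pool of cells with different inserts and not a clone. A primer in mKate2, 221 nt downstream of the inserts, started the reverse transcription, so only RNA that reached mKate2 was counted. The libraries hold one amplified locus, and the depletion of Wdr82 and Zc3h4 themselves was not measured in them.

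WDR82, a WD-repeat protein, and ZC3H4, a zinc-finger protein, form the Restrictor complex, which attenuates early transcription outside genes, such as that of uaRNAs and enhancer RNAs. WDR82 also belongs to other complexes, among them SETD1A and SETD1B histone methyltransferases and the PNUTS phosphatase complex, whereas ZC3H4 is best known as part of Restrictor. Splice sites, and the U1 snRNP that recognises a 5′ splice site, are known to favour continued transcription.

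The insert sequences were not analysed here, so the genomic context of the locus is shown in their place. Oct4 is the protein encoded by Pou5f1, and its uaRNA is transcribed away from the promoter on the opposite strand. In RefSeq's GRCm38 annotation the promoter window of Pou5f1 is chr17:35505782-35506081 on the + strand, with 250 bases before the gene's start and 50 after it. Its single match to GGGCGG, the core of the GC box bound by Sp1, is in capitals; the motif was searched on both strands (reverse CCGCCC), and 35.7% of 32851 promoter windows of this length held it. The base sequence is that of the reference strain and not of the CAST or 129 allele.
Pou5f1: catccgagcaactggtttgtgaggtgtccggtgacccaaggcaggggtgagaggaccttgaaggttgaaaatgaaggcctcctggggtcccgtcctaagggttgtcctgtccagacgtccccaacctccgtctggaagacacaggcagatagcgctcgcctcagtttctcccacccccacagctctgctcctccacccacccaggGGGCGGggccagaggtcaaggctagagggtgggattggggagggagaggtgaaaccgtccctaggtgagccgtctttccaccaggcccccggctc

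RNA libraries held 39240968 to 42381784 insert reads with siWDR82 and 32173068 to 52840375 with siZC3H4. The gDNA libraries held 4584881 to 8146606 reads with siWDR82 and 4636879 to 10844436 with siZC3H4, and the median insert had 215 to 383 and 219 to 534 gDNA reads. Across inserts, the gDNA of siZC3H4 culture 3 correlated more closely with that of siWDR82 cultures 2 and 3 (r of 0.822 and 0.827) than with that of siZC3H4 cultures 1 and 2 (r of 0.782 and 0.771). It was also the shallow one of the siZC3H4 gDNA libraries. The RNA of the same culture was closest to that of siZC3H4 culture 2 (r of 0.884). Other libraries did not group strictly by siRNA either. The RNA of siWDR82 culture 1 correlated at 0.877 with siZC3H4 culture 1 and at 0.862 with siWDR82 cultures 2 and 3. For levels the mean r was 0.677 within siWDR82, 0.706 within siZC3H4 and 0.664 between them. Values without siZC3H4 culture 3 are given for some results as they are described, and for the differences between cultures among the alternatives at the end.

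The first question was whether losing either Restrictor subunit left inserts equally far apart in RNA. Levels were less spread with siWDR82: the interquartile range (IQR) over the 15407 inserts was 1.77, 1.88 and 1.72 log2 units in siWDR82 cultures 1 to 3 and 2.01, 2.07 and 1.93 in the siZC3H4 cultures. All siWDR82 values lay below all siZC3H4 values. The means were 1.79 ± 0.081 and 2.00 ± 0.072 (SD, n = 3), a difference of -0.21, and the 9 differences between single cultures, whose range is an exact 90% interval, ran from -0.35 to -0.047. The exact two-sided permutation test gave p = 0.1, the smallest that 3 against 3 allows, and 0.143 after Benjamini-Hochberg adjustment over the 10 quantities compared per culture. For scale, the siNT cultures had an IQR of 2.54 ± 0.23. The range from the 5th to the 95th percentile was likewise 4.73, 4.86 and 4.68 with siWDR82 and 5.10, 5.25 and 5.13 with siZC3H4, a difference of -0.40 (-0.57 to -0.24; exact permutation p = 0.1).

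The lower part of the distribution held most of that difference. The 5th percentile was -3.27 ± 0.11 with siWDR82 and -3.59 ± 0.046 with siZC3H4, the 25th -1.43 ± 0.078 and -1.58 ± 0.045. The median was -0.46 ± 0.034 and -0.48 ± 0.049, a gap smaller than the spread between cultures. Above it the order turned, with a 75th percentile of 0.35 ± 0.023 and 0.42 ± 0.043. At the 95th percentile the values were 1.49 ± 0.057 and 1.57 ± 0.049. At the 99th percentile they were 2.69 ± 0.17 and 2.59 ± 0.12, a gap within the spread between cultures and of the other sign. The poorly expressed inserts thus sat higher with siWDR82, and the 75th and 95th percentiles slightly lower, than with siZC3H4. Inserts with no RNA read numbered 449, 434 and 452 in the siWDR82 cultures and 394, 511 and 502 in the siZC3H4 cultures, which overlap (exact permutation p = 0.5).

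RNA and gDNA did not share equally in the narrower spread. The IQR of log2 RNA CPM alone was 2.97, 3.00 and 2.98 with siWDR82 and 3.00, 2.99 and 3.02 with siZC3H4, with single-culture differences from -0.047 to 0.013. The IQR of log2 gDNA CPM was 2.07, 2.09 and 2.07 with siWDR82 and 1.85, 1.91 and 2.00 with siZC3H4, with differences from 0.068 to 0.25. The RNA ranges overlapped and the gDNA ranges did not: gDNA abundance was more spread in the siWDR82 cultures. The siNT cultures had gDNA IQRs of 1.96, 2.17 and 2.30, a range that overlaps both groups. Among the siZC3H4 cultures the shallowest gDNA library, that of culture 3, had the widest IQR. The spread of gDNA alone at equal depth was not examined. RNA and gDNA correlated across inserts with r of 0.76, 0.75 and 0.77 with siWDR82 and 0.72, 0.70 and 0.73 with siZC3H4. With the gDNA averaged over the 6 cultures as one denominator for all, an alternative added after the data were seen, the IQR was 1.90 ± 0.017 against 1.97 ± 0.025. That difference was -0.063 (-0.103 to -0.021), smaller than the one above and of the same sign.

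**Figure D1:**
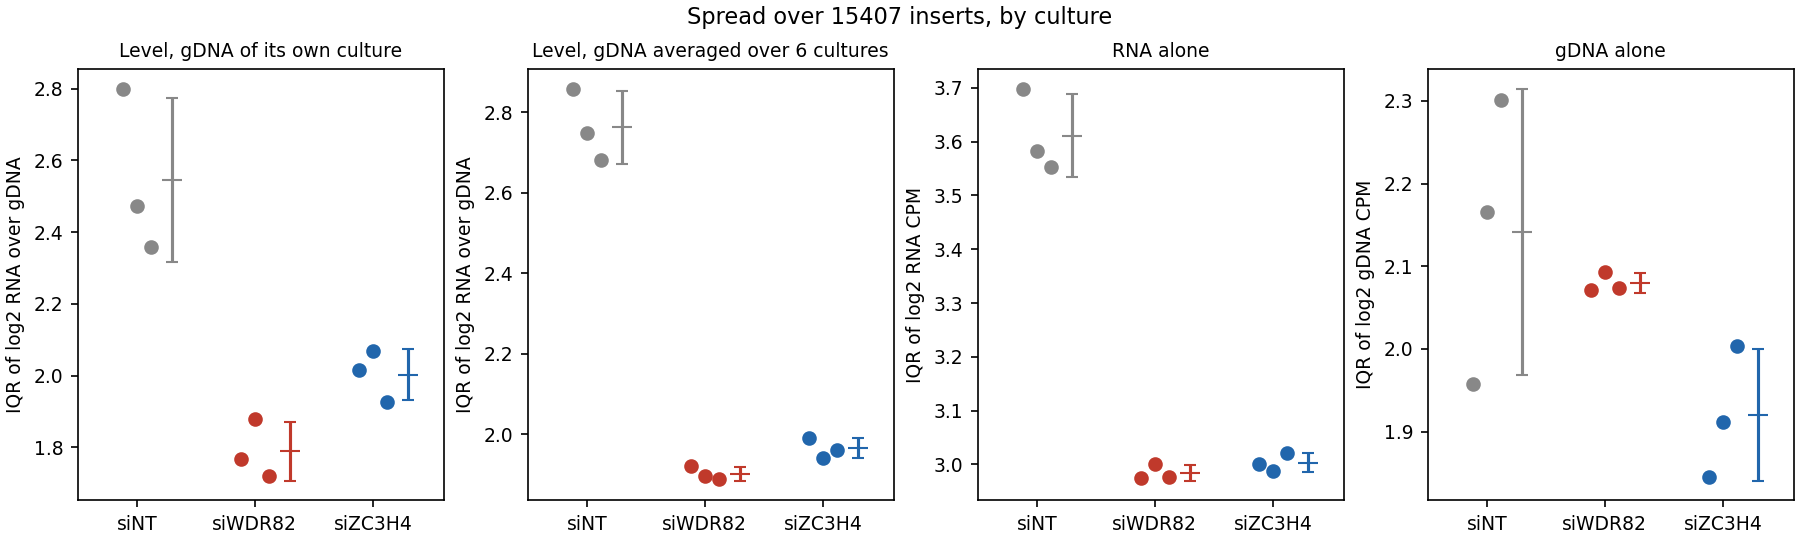
Interquartile range over 15407 inserts in each culture (points) with the mean and SD of 3 cultures (bars), for the level with the culture's own gDNA, the level with gDNA averaged over the 6 cultures, log2 RNA CPM alone and log2 gDNA CPM alone; each vertical axis is in log2 units and has its own range that does not start at 0. The siWDR82 and siZC3H4 cultures are apart in the level (1.79 ± 0.081 and 2.00 ± 0.072) and in gDNA, overlap in RNA alone, and lie below the siNT cultures in the level and in RNA.

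The next question was which inserts made up the difference. The inserts were divided into 5 equal bins by their mean level in the siNT cultures, which are no part of the contrast. In the lowest bin (3082 inserts) the median level was -1.81, -1.96 and -1.75 in the siWDR82 cultures and -2.06, -2.06 and -2.03 in the siZC3H4 cultures. All siWDR82 cultures were higher, by 0.21 on average (0.077 to 0.31). In the highest bin (3082 inserts) it was 0.69, 0.78 and 0.77 against 0.90, 0.90 and 0.87. There all siWDR82 cultures were lower, by 0.14 (single-culture differences from -0.21 to -0.087).

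The bins between ran in order from one to the other: the difference was 0.14 (0.050 to 0.23) in the second bin, -0.0065 (-0.10 to 0.087) in the third and -0.065 (-0.16 to 0.0063) in the fourth. The difference between the lowest and the highest bin was thus -2.50, -2.74 and -2.52 with siWDR82 and -2.97, -2.96 and -2.90 with siZC3H4. It was smaller in every siWDR82 culture, by 0.35 on average (0.16 to 0.46; exact permutation p = 0.1, adjusted 0.143). With the gDNA averaged over the 6 cultures, the bins were formed anew from siNT RNA over that gDNA. The gap was then smaller by 0.32 (0.20 to 0.39). Those bins are not the ones above, and their gDNA is that of the cultures compared. In the bins above, without siZC3H4 culture 3, the gap was smaller by 0.38. In the lowest of these bins the RNA alone was higher with siWDR82 by 0.12 (0.043 to 0.20). Its gDNA differed by -0.090 (-0.18 to 0.013). In the highest bin the RNA was lower by 0.14 (single-culture differences from -0.20 to -0.043), and the gDNA differed by 0.0059 (-0.058 to 0.076).

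Counts of single inserts followed the bins. Over all inserts tested, 7.54% (1162) had all 3 siWDR82 cultures above all 3 siZC3H4 cultures, and 7.04% (1084) had all 3 below. In the lowest siNT bin 9.73% lay wholly above and 3.47% wholly below. In the highest bin it was 5.42% above and 11.7% below. The lowest bin had a median fitted log2 difference of 0.23 and the highest one of -0.15, beside 0.00016 over all.

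**Figure D2:**
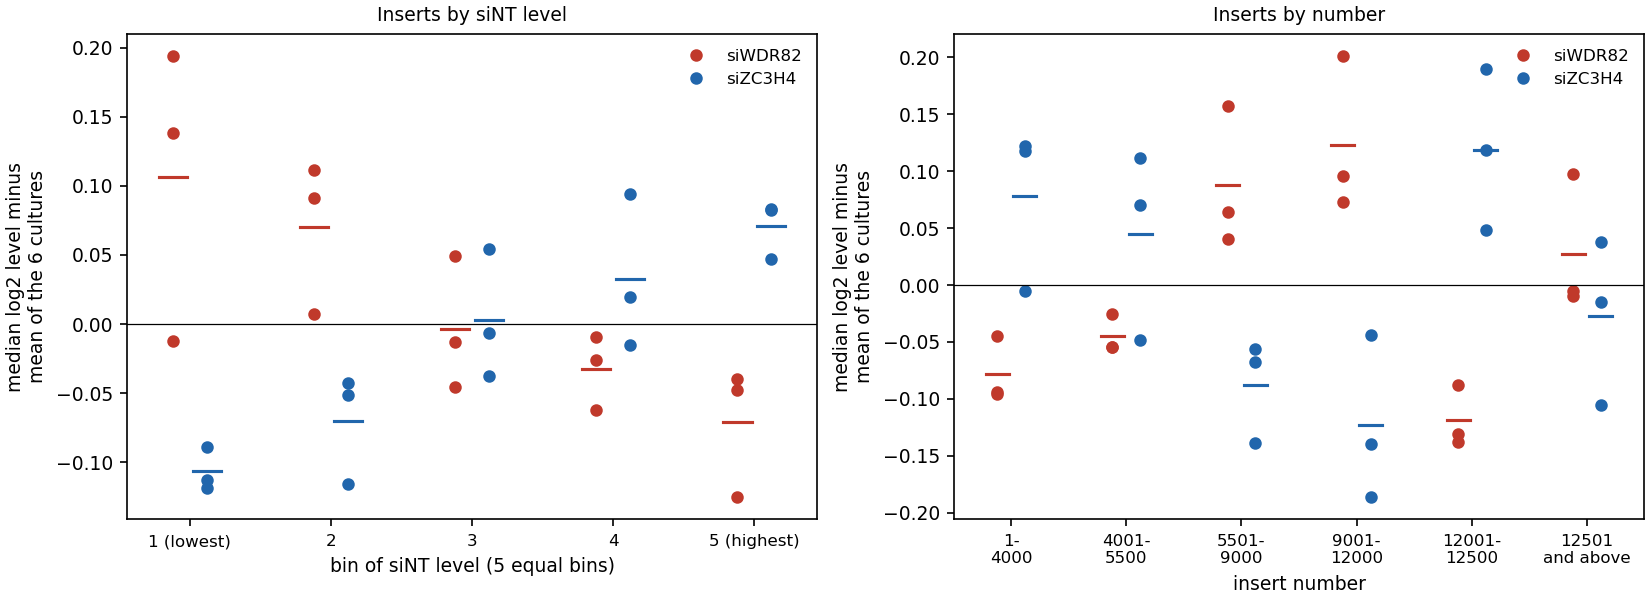
Median level in each culture minus the mean of the 6 cultures (log2 units) for inserts in 5 equal bins of siNT level (left) and in 6 ranges of insert number (right); points are cultures and short lines the means of 3. The siWDR82 cultures lie above the siZC3H4 cultures in the 2 lowest bins and in both blocks of numbers above 5500 and up to 12000. They lie below them in the highest bin, in numbers 1 to 4000 and in the block that starts just above 12000.

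For the inserts with the least RNA in siNT cultures, the difference depended on which gDNA was used. The 3 siNT cultures together held no more than 3 RNA reads of 1125 inserts, of which 499 passed the gDNA minimum. Their median level minus that of the other inserts was -1.78, -2.06 and -1.81 with siWDR82 and -2.18, -2.26 and -2.32 with siZC3H4. Each siWDR82 culture was higher, on average by 0.37 (0.12 to 0.54; exact permutation p = 0.1, adjusted 0.143). With averaged gDNA that difference was 0.074 (-0.098 to 0.23; exact permutation p = 0.4), with overlapping groups. Their median gDNA reads were 65, 41 and 31 with siWDR82 and 102, 93 and 38 with siZC3H4. In reads, 273, 259 and 266 of these inserts reached 20 RNA reads in the siWDR82 cultures and 284, 254 and 230 in the siZC3H4 cultures. These ranges overlap, and inserts with at most 3 siNT RNA reads were read after either depletion. The gDNA minimum covered the 6 cultures compared and not the siNT cultures. Of all 15407 inserts, 111, 205 and 241 had no gDNA read in siNT cultures 1 to 3. The siNT gDNA of the 499 was not examined, and whether they gained RNA on depletion was not tested. Wholly above lay 7.82% of the 499 and wholly below 3.41%, beside the 7.54% and 7.04% over all inserts.

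Splicing was compared next, since the tables list spliced forms separately. Spliced reads were a smaller share of RNA with siWDR82, but the cultures touched: 4.36%, 4.34% and 5.09% of insert reads were spliced in siWDR82 cultures 1 to 3 and 5.07%, 6.20% and 5.95% in the siZC3H4 cultures. The difference was -1.14 percentage points (-1.86 to 0.020; exact permutation p = 0.2, adjusted 0.25). Both lay below the 8.23% ± 0.74 of the siNT cultures. Per insert the groups separated. Among the 1492 inserts with a mean of at least 20 reads of each form over the 6 RNA libraries, the median of log2 spliced over unspliced reads (0.5 added to each) was -0.60, -0.55 and -0.52 with siWDR82 and -0.39, -0.37 and -0.29 with siZC3H4. Every siWDR82 culture was lower, by 0.21 on average (differences from -0.31 to -0.13; exact permutation p = 0.1, adjusted 0.143). This ratio uses RNA alone, so gDNA does not enter it.

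Of the 2 forms, spliced reads differed by more than unspliced ones. For the same 1492 inserts the median level of spliced reads over gDNA was -1.95 ± 0.12 with siWDR82 and -1.71 ± 0.11 with siZC3H4. That of unspliced reads was -1.34 ± 0.086 and -1.30 ± 0.059. The first differed by -0.24 (-0.41 to 0.014) and the second by -0.042 (-0.15 to 0.12), so both intervals reach 0. The fitted difference in the ratio was below 0, which is lower with siWDR82, for 904 of the 1492 inserts (60.6%). All siWDR82 cultures were below all siZC3H4 cultures for 10.3% of them (153) and above for 3.82% (57).

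How strongly an insert was spliced in siNT cultures divided the inserts further. Among 537 inserts with 20 to 80% of their siNT reads spliced, the median log2 ratio was -0.37, -0.39 and -0.28 with siWDR82 and -0.10, -0.026 and -0.0076 with siZC3H4. It was lower in every siWDR82 culture, by 0.30 (differences from -0.38 to -0.18), with 12.8% of inserts wholly below and 4.10% wholly above. Among 516 inserts with under 20% spliced, the means were -4.47 ± 0.14 and -4.17 ± 0.17, which differ by -0.30 (-0.57 to -0.011). Among 438 inserts with over 80% spliced the medians were 3.97 ± 0.17 and 3.98 ± 0.019, and the difference of -0.0056 (-0.20 to 0.16) is within the spread between cultures. Single inserts of that list still leaned one way, with 9.82% wholly below and 3.88% wholly above, close to the 10.3% and 3.82% of all 1492. For the inserts under 20% the shares were 7.95% and 3.49%. A difference between these 3 lists was not tested.

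Inserts with more than one spliced form were described apart. For the 116 with 2 or more forms, the median log2 ratio was -1.95, -1.42 and -1.56 with siWDR82 and -1.27, -0.94 and -0.75 with siZC3H4. They differed by -0.66 (-1.20 to -0.16), and 85 of the 116 (73.3%) had a fitted difference below 0. For the 1376 with 1 form it was -0.19 (-0.27 to -0.076), and 59.5% were below 0. Wholly below lay 10.3% (12) of the first list and wholly above 1.72% (2), the share below being that of all 1492. In both lists the medians of the cultures did not overlap, the intervals of the lists overlap each other, and the difference between the lists was not tested.

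**Figure D3:**
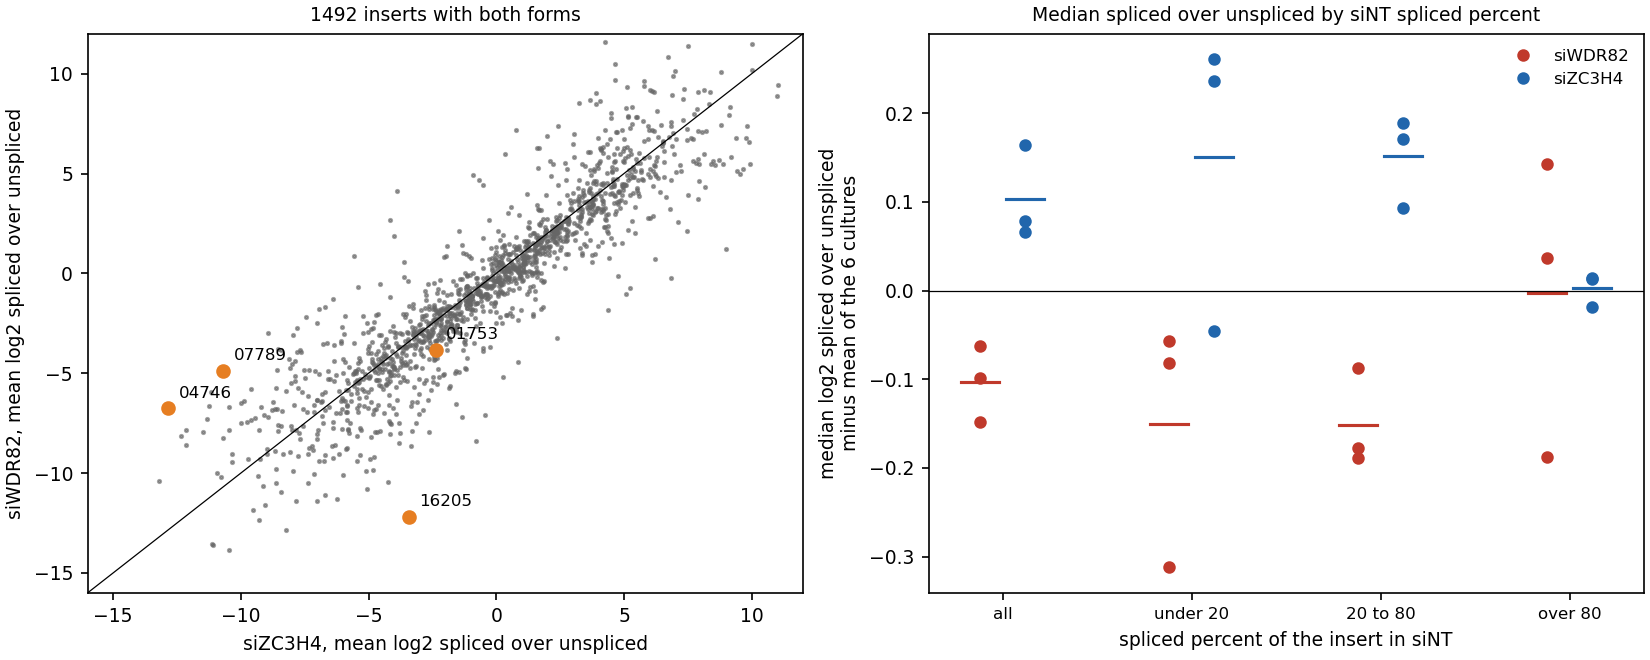
Left, mean log2 spliced over unspliced reads of 3 siZC3H4 cultures (horizontal) and 3 siWDR82 cultures (vertical) for 1492 inserts, with the line of equal values and the 4 inserts described below in orange; right, the median over inserts in each culture minus the mean of the 6 cultures, for all and by spliced percent in siNT. More points lie below the line than above it (904 of 1492 by the fit), and the cultures separate for 20 to 80% spliced (-0.35 ± 0.056 with siWDR82 and -0.046 ± 0.051 with siZC3H4) and overlap for over 80%.

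The level of inserts with a listed spliced form was set against that of all others. Of 2404 such inserts 2244 were tested. Their median level minus that of the other inserts was 0.26, 0.31 and 0.37 with siWDR82 and 0.39, 0.42 and 0.53 with siZC3H4. This excess of the spliced class was lower in every siWDR82 culture, by 0.14 (differences from -0.28 to -0.022; exact permutation p = 0.1, adjusted 0.143), and it was 1.00 ± 0.050 in siNT cultures. With averaged gDNA the difference was -0.21 (-0.33 to -0.058). Counted from unspliced reads alone, over all bins of siNT level together, it was -0.029, within the spread between cultures. Within bins of siNT level the difference in the class was -0.13 (-0.24 to 0.011) in the lowest bin and -0.088 (-0.20 to 0.042) in the second, both reaching 0. It was -0.11 (-0.14 to -0.074) in the third bin and -0.16 (-0.27 to -0.0026) in the fourth. In the highest bin, which held 897 of the 2244, it was 0.076 (-0.20 to 0.36), so the cultures overlapped in 3 of 5 bins. From unspliced reads alone it was -0.087 (-0.32 to 0.099) in the lowest bin and -0.093 (-0.15 to -0.047) in the second. It was -0.089 (-0.13 to -0.042) in the third and -0.15 (-0.23 to -0.075) in the fourth. In the highest bin it had the other sign, 0.22 (-0.18 to 0.59).

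Insert numbers run in blocks whose meaning the sources used here do not give, and the blocks differed in direction. For numbers 1 to 4000 (3850 inserts) the median level was 0.24, 0.29 and 0.24 with siWDR82 and 0.45, 0.46 and 0.33 with siZC3H4. It was lower in every siWDR82 culture, by 0.16 (differences from -0.22 to -0.040), with 11.2% of inserts wholly below and 3.77% wholly above, beside 7.04% and 7.54% over all inserts. For numbers above 9000 and up to 12000 (2696 inserts) it was -1.22, -1.25 and -1.12 against -1.51, -1.46 and -1.36. There every siWDR82 culture was higher, by 0.25 (0.12 to 0.39), with 10.9% wholly above and 4.71% wholly below, beside 7.54% and 7.04% over all. Numbers above 5500 and up to 9000 were also higher in level, by 0.18 (0.097 to 0.30). There the RNA alone differed by 0.057 (0.011 to 0.11) and the gDNA by more, -0.092 (-0.15 to -0.017). For the block up to 12000 the RNA differed by 0.097 (0.031 to 0.14) and the gDNA by -0.088 (-0.20 to 0.041). For numbers 1 to 4000 it was -0.085 (-0.16 to -0.017) in RNA and 0.050 (-0.082 to 0.16) in gDNA.

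These blocks differ in siNT level, so they were compared within its bins. In the lowest bin the block up to 12000 was higher with siWDR82 by 0.24 (0.16 to 0.30), and numbers 1 to 4000 differed by -0.031 (-0.25 to 0.15). In the third bin the block up to 12000 was still higher, by 0.15 (0.076 to 0.24), whereas numbers 1 to 4000 were lower by 0.16 (differences from -0.26 to -0.036). Inserts of one siNT bin thus lay on opposite sides in those blocks. The difference between blocks was not tested.

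The block of numbers that starts just above 12000 stood out for splicing, since 79.9% of its 473 tested inserts had a spliced form listed. Their median level was 0.063, 0.069 and 0.11 with siWDR82 and 0.25, 0.39 and 0.32 with siZC3H4. They differed by -0.24 (-0.33 to -0.14). They took 3.31% ± 0.20 of RNA reads with siWDR82 and 3.90% ± 0.21 with siZC3H4. In gDNA they took 2.65% ± 0.014 and 2.68% ± 0.068. Their log2 spliced over unspliced reads (335 inserts) were 0.97, 0.94 and 0.95 against 1.14, 1.32 and 1.37. Both their RNA share and their spliced ratio were lower in every siWDR82 culture. The ratio differed by -0.32 (-0.43 to -0.17), and by -0.30 (-0.43 to -0.19) in the 1157 inserts with other numbers. Within bins of siNT level the block's level did not keep its direction. In the lowest bin (45 inserts) it was higher with siWDR82, by 0.31 (0.12 to 0.51). In the bin just below the highest (73 inserts) it differed by -0.28 (-0.53 to -0.038). The cultures overlapped in all other bins, including the highest, which held 243 of the 473 (-0.21, -0.55 to 0.19).

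Single inserts were tested across all 15407 with edgeR's quasi-likelihood test, with the culture as a block. No insert passed an adjusted p of 0.05 (percent called 0), and the lowest adjusted p was 0.297. At an unadjusted p under 0.05 there were 1165 inserts (7.56%), of which 528 (3.43%) were higher and 637 (4.13%) lower with siWDR82. DESeq2 with the same design called 364 (2.36%), 201 higher and 163 lower, and limma called 0. The median standard error of a log2 difference was 0.525. The 95% interval lay within 2-fold either way for 2548 inserts (16.5%) and within 4-fold for 9474 (61.5%), so a 2-fold difference could not be told from none for most inserts with 3 cultures a side. The same test on gDNA alone called 0 inserts, with 870 (5.65%) at an unadjusted p under 0.05, and DESeq2 called 12 (0.0779%). No spliced over unspliced ratio passed either, and edgeR called 0 of 1492. At an unadjusted p under 0.05 there were 62 (4.16%), 13 higher (0.871%) and 49 lower (3.28%) with siWDR82. In simulated counts this test called 0 of 67 planted 2-fold changes, 0 of 67 of 4-fold and 1 of 66 of 8-fold. Even an 8-fold change was thus rarely called there, so the lack of calls alone does not show that splicing was alike. Single inserts can be more precise than the calls, as for sequence_01753 below. DESeq2 called 62 (4.16%), 21 higher and 41 lower.

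The inserts with the lowest p in each direction show what the limits of the test look like in reads. Insert sequence_13929 had 31, 51 and 60 RNA reads in the siWDR82 cultures and 1, 0 and 1 in the siZC3H4 cultures. Its gDNA reads were 237, 86 and 65 against 668, 720 and 171. RNA was thus present with siWDR82 and close to absent with siZC3H4, although the insert was the rarer in the siWDR82 cells. Pooled, its RNA over gDNA was 229-fold higher (95% Poisson interval 63.4 to 1890, which rests on 2 reads and covers counting error only). The fit gave a log2 difference of 7.26 ± 1.07 (SE), with an adjusted p of 0.297 by edgeR. Its level, in which 0.5 CPM is added and exceeds the RNA CPM of the siZC3H4 cultures, was -4.59, -3.26 and -2.88 against -6.89, -7.09 and -6.17, a smaller difference of 3.14. The size of the difference thus rests on how few reads are treated. The siNT cultures held 0, 0 and 104 reads, so an all-or-none split occurred within one siRNA as well. The insert reached the minimum mean of 20 RNA reads for naming through the siWDR82 cultures alone.

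Insert sequence_09396, one of the abundant ones, had 136125, 125606 and 141790 RNA reads in the siWDR82 cultures and 89534, 78113 and 125716 in the siZC3H4 cultures. Its level was -0.66, -0.63 and -0.39 against -1.76, -1.54 and -1.11. All siWDR82 cultures were higher, with a fitted log2 difference of 0.90 ± 0.15 (SE; edgeR adjusted p = 0.376). Its share of gDNA was 0.507%, 0.496% and 0.464% with siWDR82 and 0.723%, 0.706% and 0.515% with siZC3H4. Its gDNA share thus lay on the other side from its level, and siZC3H4 culture 3 was the nearest to siWDR82 in both. Without that culture edgeR gave an adjusted p of 0.0109. In siNT cultures 1 to 3 its level was -2.31, -1.32 and -0.87.

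In the other direction, sequence_03572 had a level of -0.47, -0.64 and -0.37 with siWDR82 and 0.97, 0.77 and 0.61 with siZC3H4. Its fitted difference was -1.29 ± 0.25 (edgeR adjusted p = 0.376). Its gDNA alone was higher with siWDR82 by 0.94 on the log2 scale (edgeR adjusted p = 0.816), which is most of the size of its difference in level. Insert sequence_03177 had RNA reads of 236, 92 and 226 in the siWDR82 cultures, below the 687, 321 and 915 of the siZC3H4 cultures. Its level was -4.45, -5.27 and -4.63 against -2.37, -3.21 and -2.71, a fitted difference of -2.14 ± 0.42 (edgeR adjusted p = 0.376). Its gDNA differed by 0.42, so here RNA reads carried most of the difference. The siNT cultures held 436, 376 and 0 of its RNA reads, with levels of -2.92, -3.10 and -8.20. Cultures of one siRNA were thus further apart than the 2 depletions.

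**Figure D4:**
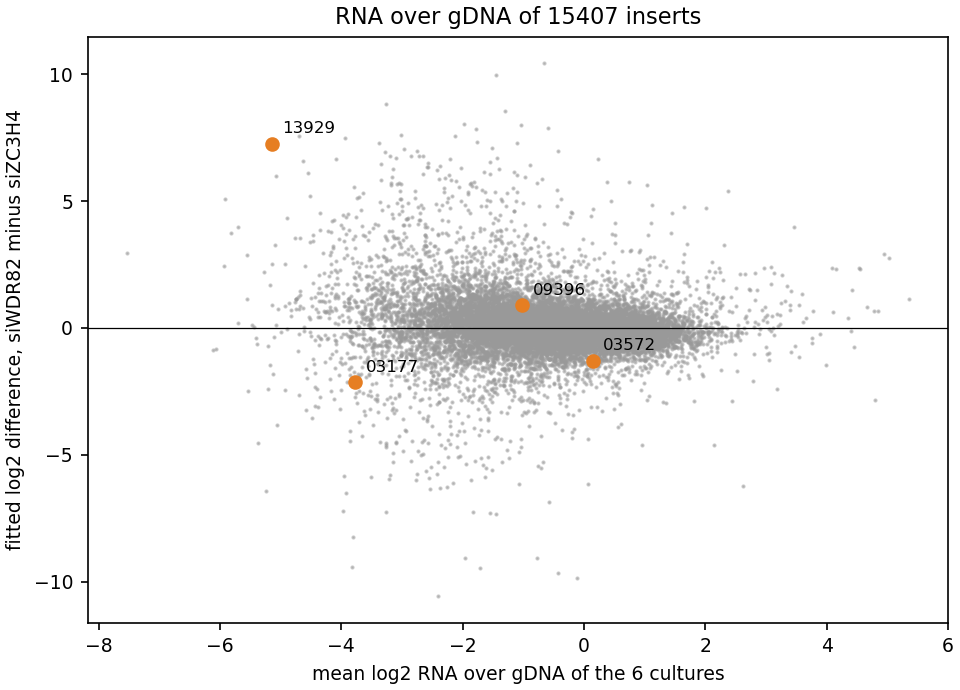
Fitted log2 difference in RNA over gDNA, siWDR82 minus siZC3H4 (vertical), against the mean level of the 6 cultures (horizontal, log2) for 15407 inserts, with the 4 inserts of lowest p in orange. None passed an adjusted p of 0.05; most points lie within 1 log2 unit of 0 (12256 of 15407), and the vertical scatter is wider at low levels.

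For splicing, sequence_16205 had the lowest p of the 1492. Its spliced form had 1, 1 and 0 reads in the siWDR82 cultures and 656, 484 and 557 in the siZC3H4 cultures. Unspliced reads were plentiful in both, 15942 and 20962 in all. The spliced form was thus read in all siZC3H4 cultures and hardly in any siWDR82 culture. Pooled, its spliced over unspliced reads were 645-fold higher with siZC3H4 (95% Poisson interval 179 to 5328 from 2 reads; counting error only). The fitted log2 difference was -9.32 ± 0.94 (SE; edgeR adjusted p = 0.104). The siNT cultures held 0, 2 and 0 spliced reads. This insert passed the minimum for spliced reads through the siZC3H4 cultures alone, so its fold describes the reads and tests nothing.

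Insert sequence_01753 differed by degree. It had 2156, 1894 and 1488 spliced reads with siWDR82 and 3913, 3895 and 5246 with siZC3H4, which were 6.70% and 15.9% of its reads. Its log2 ratio was -3.66, -3.80 and -3.99 against -2.48, -2.07 and -2.57, a fitted difference of -1.44 ± 0.23 (edgeR adjusted p = 0.353). In the other direction, sequence_04746 had 66, 35 and 32 spliced reads with siWDR82 and 0 in every siZC3H4 culture, beside 13914 and 11352 unspliced reads. If 3 spliced reads are allowed for the siZC3H4 group in place of 0, the ratio with siWDR82 was at least 36.2-fold higher (adjusted p = 0.322 by edgeR). Insert sequence_07789 had 51, 46 and 28 spliced reads against 0, 0 and 0, at least 34.8-fold higher (adjusted p = 0.353 by edgeR), while siNT culture 3 held 137 and the other siNT cultures 0. Both sequence_04746 and sequence_07789 passed the minimum for spliced reads through the siWDR82 cultures alone. Their folds thus describe the reads and test nothing.

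Such forms were few. Of 2389 spliced forms of tested inserts, 3 had at least 20 reads in every siWDR82 culture and at most 3 in all siZC3H4 cultures together, and 4 had the reverse. Presence and absence also split cultures of one siRNA: 368 forms had at least 20 reads in one siWDR82 culture and at most 1 in another, and 374 did so among the siZC3H4 cultures. At least 20 reads in all 6 cultures were found for 1204 forms.

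RNA was concentrated in few inserts to a different degree, and that difference rested on a pair of inserts. The 154 highest inserts of each culture (1%) took 13.3%, 13.1% and 10.1% of RNA reads with siWDR82 and 9.54%, 9.88% and 10.1% with siZC3H4. They differed by 2.30 percentage points (0.029 to 3.71; exact permutation p = 0.1, adjusted 0.143). Inserts sequence_00580 and sequence_01137, named after their values were seen, were the highest in siWDR82 cultures 1 and 2. The first took 2.19%, 2.01% and 0.39% of RNA with siWDR82 and 0.18%, 0.24% and 0.39% with siZC3H4. For the second the shares were 1.76%, 1.68% and 0.28% against 0.091%, 0.13% and 0.28%. In siWDR82 culture 3 both took nearly the same share of RNA as in siZC3H4 culture 3. Without them the share was 9.77%, 9.80% and 9.57% against 9.38%, 9.63% and 9.54%, which overlap (difference 0.195, -0.064 to 0.42; exact permutation p = 0.2).

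Total RNA from the locus could be read only against the spike-in RNA. The siWDR82 cultures gave 97.7, 46.3 and 61.8 insert reads per spike-in read, and the siZC3H4 cultures 25.4, 59.5 and 79.5. Their geometric means differed 1.33-fold, siWDR82 being the higher, a log2 difference of 0.41 (-0.78 to 1.94; exact permutation p = 0.6). The groups overlap, and siZC3H4 culture 1 set the sign, since without it the log2 difference was -0.073. More RNA per cell and more cells per spike-in cannot be told apart in these ratios. All levels above are therefore relative to the other inserts of the same culture.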

How the data were processed

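Amplicon libraries of the inserts' RNA and gDNA were compared between 3 siWDR82 and 3 siZC3H4 cultures. The authors deposited raw read counts per insert and spliced form, one table each for RNA and gDNA. The submitters' processing notes name cutadapt 1.14, Bowtie2 2.3.4.3, STAR, SAMtools and mm10; their order and settings are not stated there. Counts are reads without molecular identifiers, so intervals on reads cover counting error only.

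From the deposited counts, edgeR 4.0.16 (R 4.3.3) fitted RNA and gDNA of the 6 cultures with TMM scaling within each and the culture as a block. Spliced against unspliced reads were fitted in the same way, scaled to all insert reads. DESeq2 1.42.0 and limma 3.58.1 were alternatives, and p-values were adjusted by Benjamini-Hochberg over all inserts tested. The 10 quantities per culture were compared by exact two-sided permutation tests. The fits and the culture quantities were tested on simulated data. For RNA over gDNA, edgeR called 4 of 67 planted 2-fold changes and 48 of 66 of 8-fold. For splicing it called 1 of 66 of 8-fold. The 2 inserts of lowest p in each direction were named, for level and for splicing, if they averaged at least 20 RNA reads and their groups did not overlap. Members, lists and tests were chosen with earlier results of these data known.

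The RNA and gDNA of a culture deviated together (r of 0.309 to 0.468 in 6 of 6 cultures). Replicate numbers did not pair siWDR82 with siZC3H4 cultures. The design text calls the replicates biological. The 1054 inserts under the gDNA minimum were left out.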

Additional observations from a re-analysis of the deposited data

How the results depend on the processing

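The differences between cultures in IQR, 5th to 95th percentile range, bin gap, spliced share, spliced ratio, nearly silent and spliced class, inserts without RNA and 1% share kept their sign under every alternative run. Part of this was fixed in advance. Where all siWDR82 cultures lay on one side of all siZC3H4 cultures, leaving out a culture could not reverse the sign. Pairing cultures by number does not change the mean difference at all. Those runs thus show the size of the difference and do not test its sign. With 3 cultures a side none could pass the threshold, which says nothing about stability. Leaving out each culture in turn gave -0.26 to -0.18 for the IQR, -0.45 to -0.35 for the percentile range, -61.5 to -3 for inserts without RNA, -1.48 to -0.91 for the spliced percent, -0.23 to -0.18 for the spliced ratio, 0.31 to 0.43 for the bin gap, -0.17 to -0.094 for the spliced class, 0.32 to 0.46 for the nearly silent class, and 1.74 to 3.32 for the 1% share. Without siZC3H4 culture 3 the IQR differed by -0.25, the percentile range by -0.42, the bin gap by 0.38 and the 1% share by 2.42. Each of these was larger than with that culture. Smaller without it were the spliced ratio (-0.18), spliced class (-0.094), nearly silent class (0.34), spliced percent (-1.04) and inserts without RNA (-7.5). The log2 difference in insert reads per spike-in read ranged from -0.073, reversed without siZC3H4 culture 1, to 0.75. With libraries thinned to the lowest total among the 6 cultures, the IQR differed by -0.22. The count of inserts called for RNA over gDNA was 1 without blocks, 1 with RNA scaled to spike-in reads (sequence_13929 both times), 364 by DESeq2 and 0 to 3 leaving out cultures: sequence_00580 and sequence_01137 without siWDR82 culture 3, and sequence_09023, sequence_09396 and sequence_11034 without siZC3H4 culture 3. For splicing it was 7 without blocks, 62 by DESeq2 and 0 in every fit that left out a culture. For gDNA it was 12 by DESeq2 and 0 to 10 leaving out cultures, 10 without siZC3H4 culture 3. The cause of these differences was not tested. Same-numbered siWDR82 and siZC3H4 cultures showed r of 0.066, -0.0034 and 0.048 between their deviations from the group means; with the replicate number as a block edgeR called 0 inserts in all 3 tests, and in the exact test of 3 pairs the culture quantities could not go below p = 0.25. Read depth limits inserts of low gDNA and RNA most.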

Other observations

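Single spliced forms that were read after one depletion and not the other included some beyond those named above, chosen after their values were seen. The spliced form of sequence_02880 had 26, 124 and 69 reads in the siZC3H4 cultures, 0 in every siWDR82 culture and 0, 43 and 0 in the siNT cultures. That of sequence_13336 had 33, 47 and 41 reads in the siZC3H4 cultures and 0 in every siWDR82 culture, with 1, 0 and 0 in the siNT cultures. The form of sequence_04872 had 21, 24 and 36 reads in the siZC3H4 cultures and 0 in every siWDR82 culture, with 0, 0 and 30 in the siNT cultures. The spliced form of sequence_13890 went the other way, with 24, 20 and 47 reads in the siWDR82 cultures and 1, 1 and 0 in the siZC3H4 cultures, beside 1, 78 and 72 in the siNT cultures.

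Inserts sequence_00580 and sequence_01137 also varied among the siNT cultures, where they took 0.61%, 0.92% and 3.78%, and 0.40%, 0.70% and 2.97%, of RNA reads in cultures 1 to 3. In every one of the 9 cultures the first took the larger share. Their gDNA shares were 0.016% to 0.038% and 0.0091% to 0.043% over the 9 cultures.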
